A study of Homo sapiens with 6 samples.

Results

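The 10 genes described here encode proteins that control the step of a cell from G2 into mitosis. They are the kinase CDK1, the cyclins CCNA2, CCNB1 and CCNB2 and the phosphatases CDC25A, CDC25B and CDC25C. The others are the kinase PLK1, the kinase WEE1, which restrains this step, and the transcription factor FOXM1. All 10 were taken by gene symbol from a table of 48114 gene rows, and each symbol matched 1 row. RNA was sequenced from TC-71, a line of human Ewing sarcoma cells labelled wild type. The cells were kept for 16 h either with BEZ235, a compound that inhibits the lipid kinase PI3K and the growth kinase mTOR, or with dimethyl sulfoxide (DMSO), its solvent, alone. Each group had 3 libraries, from biological replicates per the labels; the dose of BEZ235 is not stated in the labels, nor is how the replicates were separated. All 6 libraries came from 1 cell line, and p-values measure the spread between these libraries only.

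CDK1 bound to a B-type cyclin is the kinase that starts mitosis, and bound to cyclin A it also acts earlier, in S phase and G2. WEE1 and its relative PKMYT1 hold the complex inactive by phosphorylating CDK1. The CDC25 phosphatases remove these phosphates. PLK1, itself switched on by Aurora A, speeds this step by activating CDC25C and marking WEE1 for destruction. Most of these genes are transcribed chiefly in G2 and mitosis, by FOXM1, B-MYB and the MuvB complex acting with the CCAAT-binding factor NF-Y. In a growing population their transcripts therefore depend on how many cells are in those phases as well as on the level in each cell. In bulk RNA, fewer cells in G2 and mitosis and less RNA per such cell cannot be told apart.

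All 10 genes fell with BEZ235, and in none did the groups overlap. CDK1 fell most, to 12.2% of its DMSO mean, followed by CCNA2 at 17.3% and CDC25C at 24.7%. CCNB2, CDC25A, PLK1 and FOXM1 stood between 31.9% and 35.3%, CDC25B at 48.4%, and CCNB1 and WEE1 fell least, to 54.5% and 57.0%. The test was limma on log2(normalized count + 1) over the 23923 genes that passed a filter on low counts, all 10 genes among them, and a gene was called when its p, adjusted by the Benjamini-Hochberg method, was under 0.05. By this rule 66.3% of all tested genes were called, 33.2% as lower and 33.1% as higher, and 35.4% had all 3 BEZ235 values below all 3 DMSO values. A call by itself was thus common in these data, and the sizes say more. Of the 10 genes, 8 were called and at least 2-fold lower, as were 13.6% of all tested genes. Their median log2 fold change was -1.52, against 0.00 for all tested genes.

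**Figure D1:**
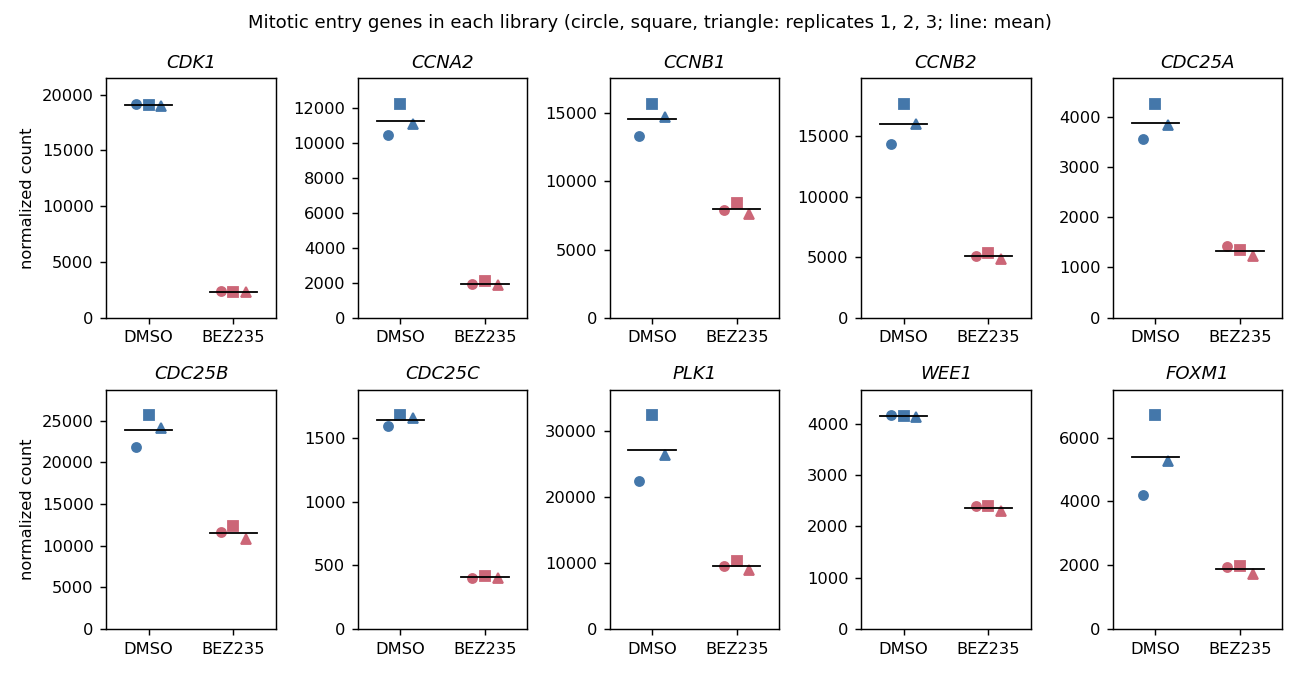
Normalized count (vertical axes, each from 0) of the 10 genes in the 3 DMSO and 3 BEZ235 libraries; circles, squares and triangles are replicates 1, 2 and 3, blue is DMSO and red BEZ235, and lines are group means. In every panel all BEZ235 points lie below all DMSO points, and the DMSO points of FOXM1 and PLK1 are the most spread.

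The promoters of these genes are shown because the genes moved together and because their shared promoter elements are well known. RefSeq promoters (GRCh38.p14; hg38, the build of the table, has the same chromosome sequences; 250 bases before to 50 after each start) matched 8 of the 10 genes with 15 windows; WEE1 and FOXM1 were not matched. Each line gives the 150 bases before a start, 5′ to 3′ on the gene's strand. Capitals mark TTTGAA or TTCGAA (forms of the cell cycle genes homology region, CHR, which MuvB binds), CCAAT or its reverse complement ATTGG (the box NF-Y binds), and TTGGCGC or TTCGCGC with their reverse complements (forms of the E2F site). Where a gene has several starts (2 for CDK1, 4 each for CDC25B and CDC25C), 1 window is printed. For CDC25B this is the window that holds its CHR. For CDC25C it is the earlier of the windows with CCAAT, so the choice favours windows with a match. The windows of its starts farther upstream, at 138338355 and 138338341, held none of the forms searched. Some unprinted windows of CDC25B also held none. For CDK1 and CDC25C, 30 bases around the first TTTGAA of a window with a later start follow, labelled CHR. Which match acts as a CHR was not tested.
CDK1, chr10:60778181-60778330, plus strand: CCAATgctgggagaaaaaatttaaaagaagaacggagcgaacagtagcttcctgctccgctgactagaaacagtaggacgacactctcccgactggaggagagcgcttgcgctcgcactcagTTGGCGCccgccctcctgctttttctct
CDK1 CHR, chr10:60778396-60778425, plus strand: tctgATTGGctgcTTTGAAagtctacgggc
CCNA2, chr4:121823884-121824033, minus strand: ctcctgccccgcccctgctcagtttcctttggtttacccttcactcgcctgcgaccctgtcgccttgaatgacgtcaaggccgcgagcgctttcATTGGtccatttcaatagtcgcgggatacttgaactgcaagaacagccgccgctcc
CCNB1, chr5:69167000-69167149, plus strand: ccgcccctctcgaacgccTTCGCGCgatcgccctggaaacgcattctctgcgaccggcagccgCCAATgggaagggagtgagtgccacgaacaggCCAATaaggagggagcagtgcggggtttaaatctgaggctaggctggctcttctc
CCNB2, chr15:59104996-59105145, plus strand: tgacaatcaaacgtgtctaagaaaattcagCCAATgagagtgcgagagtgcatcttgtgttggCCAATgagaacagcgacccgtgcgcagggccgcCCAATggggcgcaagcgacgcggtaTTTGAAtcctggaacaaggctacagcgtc
CDC25A, chr3:48188418-48188567, minus strand: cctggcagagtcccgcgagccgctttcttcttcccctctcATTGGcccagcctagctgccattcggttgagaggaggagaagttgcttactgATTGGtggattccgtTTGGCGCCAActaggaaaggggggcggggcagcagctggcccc
CDC25B, chr20:3796160-3796309, plus strand: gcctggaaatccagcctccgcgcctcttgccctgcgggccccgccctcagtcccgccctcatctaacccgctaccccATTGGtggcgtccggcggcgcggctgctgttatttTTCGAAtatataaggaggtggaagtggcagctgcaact
CDC25C, chr5:138331878-138332027, minus strand: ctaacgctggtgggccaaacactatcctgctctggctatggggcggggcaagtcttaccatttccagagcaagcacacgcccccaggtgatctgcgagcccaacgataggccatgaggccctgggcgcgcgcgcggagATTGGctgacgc
CDC25C CHR, chr5:138331818-138331847, minus strand: ggctggcggaaggTTTGAAtggtcaacgcc
PLK1, chr16:23678739-23678888, plus strand: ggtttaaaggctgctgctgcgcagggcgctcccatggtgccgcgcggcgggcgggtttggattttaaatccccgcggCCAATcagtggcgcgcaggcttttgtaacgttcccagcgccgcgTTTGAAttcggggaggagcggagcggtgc

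All 8 matched genes held CCAAT in at least 1 window, as did 39.7% of the 27305 genes in the promoter table. In all shares by gene given here, a gene with more windows had more chances of a match. CDC25B and CDC25C had 4 windows each. By window the box stood in 11 of 15, against 34.6% of 35116 windows; windows of 1 gene overlap or lie close together, so they are not separate. TTTGAA stood in CDK1, CCNB2, CDC25C and PLK1 (18.2% of all genes) and TTCGAA, its own reverse complement, in CDC25B (1.82% of all genes). In CCNB2 and PLK1 the CHR lay at the same place, from base -29 to base -24 before the start, and in the later window of CDC25C at -30 to -25. Elsewhere its place differed. In CDC25B it lay at -38 to -33 and in the earlier CDK1 window at -161 to -156. The later CDK1 window held TTTGAA at -69 (the match printed), at -13 and, on the opposite strand after the start, at 9. Counted from the earlier CDC25C start, the CDC25C match lay after it, at 43 to 48. Neighbouring CCAAT boxes of CCNB2 began 33 and again 33 bases apart, and those of CCNB1 and of the later CDK1 window 32. Other spacings were less alike: a further CCNB2 box, at base -244, began 124 bases from its neighbour, the boxes of CDC25A began 52 apart, and those of the earlier CDC25C window 17 and 188. TTGGCGC stood in CDK1 and CDC25A (3.66% of all genes), where in CDC25A the matches on the opposite strands overlap, and TTCGCGC in CDK1 (outside the stretch shown) and CCNB1 (2.75%). The forkhead letters GTAAACA, a form of site bound by FOXM1 and other forkhead factors, or their reverse complement were found for CDK1 alone (4.19% of all genes), outside the stretch shown. The 5 genes with TTTGAA or TTCGAA had log2 fold changes from -3.03 to -1.05 and the other 3 from -2.53 to -0.87, so the ranges overlapped. This splits the genes by those letters only: other forms of the CHR, such as the CTTGAA known from CCNA2, were not searched.

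The libraries held 184790722 to 233767211 reads, recovered from the normalized values, and the 10 genes had 346 to 31582 reads per library. Mitochondrial genes made up 2.82 to 3.55% of normalized counts in DMSO and 0.507 to 0.706% in BEZ235; the part of this shift in the results was not tested. The Ewing sarcoma markers CD99, NKX2-2, NR0B1, FLI1 and EWSR1 were all expressed, but not at constant levels. NKX2-2 rose from 3154 ± 126 to 7561 ± 127 (SD, n = 3; log2 fold change 1.26), while NR0B1 fell from 54196 ± 5215 to 25064 ± 427 (log2 fold change -1.11) and CD99 fell by 0.34 on the log2 scale. EWSR1 had a log2 fold change of 0.14 (limma adjusted p = 0.0441, but 0.558 with total-count scaling and 0.114 to 0.168 without DMSO replicate 1 or 3 or BEZ235 replicate 1 or 2) and FLI1 one of -0.07 (limma adjusted p = 0.428). Of 12 markers of other cells (blood, epithelium, fibroblasts, endothelium), 8 were too low to test (no value above 16.5) and 4 or 5 were at 0 in each library, among them CD3E, HBB and KRT5 in all 6. The summed level of the 12 was 29451 to 30365 in DMSO and 33543 to 35947 in BEZ235 libraries and came mainly from the fibroblast collagens, which went opposite ways: COL1A1 fell from 8449 ± 485 to 5078 ± 217 (SD, n = 3) and COL3A1 rose from 20658 ± 734 to 29032 ± 1515. EPCAM, an epithelial marker, rose from 55.3 ± 13.9 to 115 ± 23.0 (SD, n = 3), and DCN, a fibroblast proteoglycan, had a log2 fold change of 0.25 (limma adjusted p = 0.0385, but 0.254 with total-count scaling and 0.0715 to 0.119 without DMSO replicate 1 or 3 or BEZ235 replicate 1 or 3). The part of these markers in the results was not tested.

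CDK1, the kinase at the centre of the switch (chromosome 10, 60778331 to 60794852), read 19166, 19057 and 18963 normalized counts in DMSO replicates 1 to 3 and 2424, 2286 and 2287 in the BEZ235 replicates. The 3 DMSO libraries lay within 1.01-fold of each other, and even the lowest was 7.82-fold above the highest BEZ235 library. The log2 fold change was -3.03 (limma: SE 0.051, adjusted p = 3.67e-11), and 1.67% of all tested genes fell more. Its row overlaps no other row of the table.

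CCNA2, cyclin A2 (chromosome 4, 121816444 to 121823916), read 10459, 12245 and 11124 in DMSO and 1913, 2070.2 and 1866 in BEZ235. The groups were far apart, with a log2 fold change of -2.53 (limma: SE 0.070, adjusted p = 5.05e-10). CCNB1, cyclin B1 (chromosome 5, 69167121 to 69178245), read 13373, 15688 and 14735 in DMSO against 7892, 8383 and 7599. This was a change of -0.87 on the log2 scale (limma: SE 0.067, adjusted p = 6.33e-07), and 18.3% of tested genes fell more. CCNB2, cyclin B2 (chromosome 15, 59105121 to 59125050), read 14338, 17669.9 and 15982 in DMSO and 5101, 5318 and 4873 in BEZ235, a log2 fold change of -1.65 (limma: SE 0.074, adjusted p = 1.25e-08). The CCNA2 row overlaps that of EXOSC9 on the opposite strand, with which it shares 144 of 2798 exon bases, and EXOSC9 had a log2 fold change of -0.17. The CCNB2 row overlaps a row without a symbol, with a mean of 527 normalized counts over all libraries. How many exon bases these rows share was not computed. The strand of the counts is not known.

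The cyclins and their kinase thus changed by unequal amounts, which ratios within a library show free of any scaling between libraries. The log2 ratio of CCNB1 to CCNB2 was -0.10, -0.17 and -0.12 in DMSO and 0.63, 0.66 and 0.64 in BEZ235, so CCNB1 went from slightly below to above CCNB2 in read count, a shift of 0.77. That of CCNA2 to CCNB1 went from -0.37 ± 0.029 (SD, n = 3) to -2.03 ± 0.014, a shift of -1.66, and that of CCNB1 to CDK1 from -0.39 ± 0.12 to 1.77 ± 0.092, a shift of 2.16. None of these ratios overlapped between the groups (exact two-sided permutation p = 0.1 each, the smallest that 3 libraries against 3 allow; adjusted p = 0.111 over the 10 pairs compared). Counts of different genes differ by transcript length, so only the shifts of these ratios compare the genes.

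**Figure D2:**
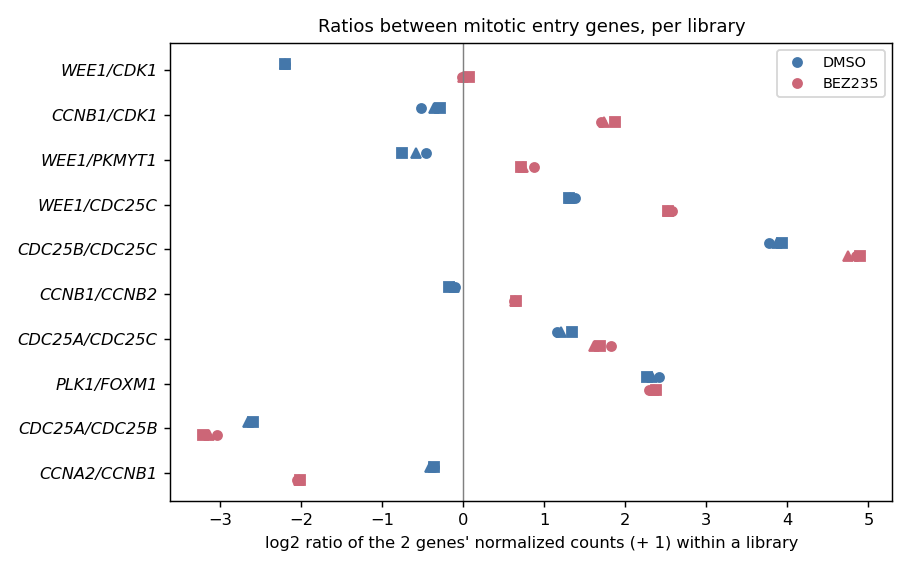
Log2 ratio of the normalized counts of 2 genes within each library (horizontal axis) for the 10 pairs compared, with DMSO and BEZ235 libraries in 2 colours and replicates 1, 2 and 3 as circles, squares and triangles. The groups are apart for 9 pairs and overlap for PLK1 to FOXM1.

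The 3 CDC25 phosphatases differed in how far they fell. CDC25A, which acts from G1/S onwards (chromosome 3, 48157146 to 48188417), read 3554, 4249.6 and 3827 in DMSO and 1419, 1339.7 and 1220.5 in BEZ235, a log2 fold change of -1.55 (limma: SE 0.084, adjusted p = 4.75e-08). CDC25B, which acts on CDK1 at the centrosome in G2 (chromosome 20, 3786931 to 3806118), read 21839.7, 25645 and 24166 against 11588.5, 12358 and 10756. Its log2 fold change was -1.05 (limma: SE 0.071, adjusted p = 2.51e-07), with a 95% interval of -1.20 to -0.89 that spans the 2-fold line. CDC25C, the phosphatase that PLK1 and CDK1 activate at mitotic entry (chromosome 5, 138285265 to 138338355), read 1592, 1678 and 1655 in DMSO and 401, 416 and 399 in BEZ235. All 3 BEZ235 libraries lay within 1.04-fold of each other, and the log2 fold change was -2.02 (limma: SE 0.082, adjusted p = 5.83e-09).

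The ratio of CDC25B to CDC25C rose by 0.97 on the log2 scale, from 3.86 ± 0.079 (SD, n = 3) to 4.83 ± 0.072. That of CDC25A to CDC25C rose by 0.47 and that of CDC25A to CDC25B fell by 0.50, again with no overlap (exact two-sided permutation p = 0.1 and adjusted p = 0.111 for each). CDC25C therefore fell most of the 3 and CDC25B least. The CDC25C row shares 276 of 2570 exon bases with FAM53C on the other strand, which was far more abundant (8364 ± 206 in DMSO and 8709 ± 251 in BEZ235, SD, n = 3) and had a log2 fold change of 0.06 (adjusted p = 0.331, limma). How many CDC25C counts could be FAM53C reads was not tested.

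WEE1, the nuclear kinase that opposes CDC25 by phosphorylating CDK1 (chromosome 11, 9573670 to 9589985), had the most even DMSO values of the set. It read 4164, 4146 and 4133 in DMSO and 2395, 2404 and 2294 in BEZ235. The groups were 1.72-fold apart at their nearest, with a log2 fold change of -0.81 (limma: SE 0.056, adjusted p = 2.86e-07), and 19.8% of tested genes fell more. PKMYT1, the membrane-bound kinase with the same target, fell much further, from 6310.4 ± 640 (SD, n = 3) to 1383 ± 81.6, a log2 fold change of -2.19 (SE 0.081). The WEE1 to PKMYT1 ratio accordingly rose by 1.37 on the log2 scale, from between -0.76 and -0.46 to between 0.71 and 0.88. Against the kinase it restrains, WEE1 rose by 2.22, from a log2 ratio to CDK1 of -2.20 ± 0.0022 (SD, n = 3) to 0.02 ± 0.047. Against CDC25C, which undoes its work, it rose by 1.21. The 3 ratios did not overlap between groups (exact two-sided permutation p = 0.1 and adjusted p = 0.111 for each).

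PLK1, the polo-like kinase (chromosome 16, 23677656 to 23690367), read 22450.0, 32371 and 26358 in DMSO and 9573, 10253 and 8859 in BEZ235. The DMSO libraries spread over 1.44-fold, yet the lowest stood 2.19-fold above the highest BEZ235 library. Its log2 fold change was -1.49 (limma: SE 0.11, adjusted p = 5.23e-07). FOXM1, the forkhead transcription factor of G2 genes (chromosome 12, 2857680 to 2877174), read 4214, 6699 and 5255 in DMSO and 1949, 1963 and 1736 in BEZ235. It had the widest DMSO spread of the 10, 1.59-fold, and a log2 fold change of -1.49 (limma: SE 0.14, adjusted p = 2.47e-06). PLK1 and FOXM1 were the pair whose ratio did not separate the groups, with a log2 ratio of 2.27 to 2.41 in DMSO and 2.30 to 2.38 in BEZ235 (exact two-sided permutation p = 1). The PLK1 row shares 42 of 2227 exon bases with ERN2, a low row on the opposite strand that also fell, and FOXM1 shares no exon bases with its neighbours RHNO1 and ITFG2.

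**Figure D3:**
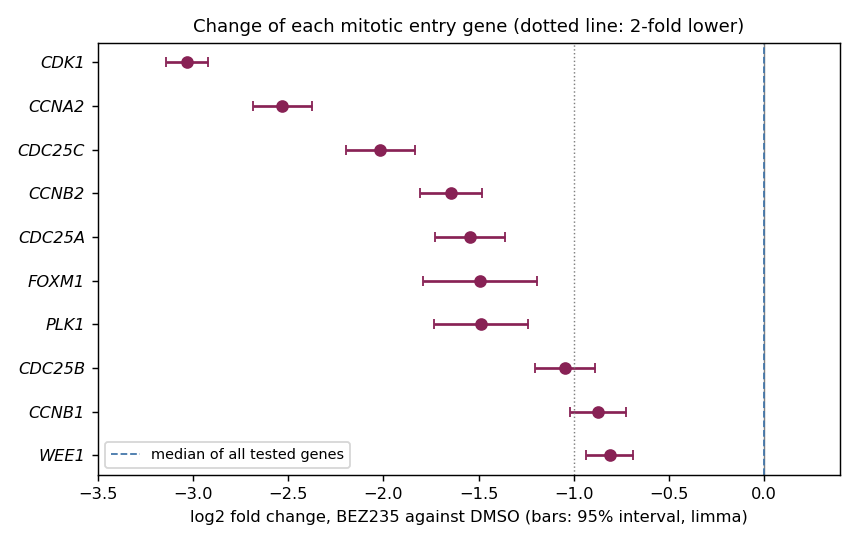
Log2 fold change of each gene, BEZ235 against DMSO (points), with 95% intervals from limma (bars), ordered by size; the dotted line marks a 2-fold fall and the dashed line the median of all tested genes. CDK1 at -3.03 and CCNA2 at -2.53 stand apart from the other 8, and the intervals of CDC25B and CCNB1 cross the dotted line.

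Per kilobase of exon (union of GENCODE v29 basic exons), which allows levels of different genes to be set side by side, PLK1 was highest in DMSO at 12151 ± 2244 normalized counts per kilobase (SD, n = 3). CDK1 followed at 9358 ± 49.8 and CCNB1 at 6731 ± 536, next to CDC25B at 6019 ± 483 and CCNB2 at 5936 ± 618. Their ranges of mean ± SD overlap, but much of that spread was common to these genes. The log2 ratio of CCNB1 to CCNB2 had an SD of only 0.037 in DMSO, so the SDs do not measure differences between genes. CCNA2 stood at 4029.97 ± 323, FOXM1 at 1477 ± 342, CDC25A at 1025 ± 92.7, WEE1 at 973 ± 3.69 and CDC25C at 639 ± 17.2. CDC25A and WEE1 also lay within the spread of CDC25A. In BEZ235 PLK1 was still highest at 4294 ± 313 and CDC25C lowest at 158 ± 3.60, but the middle of the order changed. CCNB1 at 3669 ± 183, CDC25B at 2915 ± 202 and CCNB2 at 1891 ± 82.6 now stood above CDK1 at 1145 ± 38.9. WEE1 at 554 ± 14.3 now stood above FOXM1 at 516 ± 34.8 and CDC25A at 351 ± 26.4. The transcripts present in these cells are unknown, so the lengths are approximate.

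Within the DMSO group, 8 of the 10 genes had the same order of libraries, with replicate 1 lowest and replicate 2 highest; this order held for 26.7% of all tested genes. FOXM1 and PLK1 varied most, with coefficients of variation of 23.2% and 18.5%, and the CCNA2, CCNB1, CCNB2, CDC25A and CDC25B values stood between 7.97% and 10.4%. CDK1 and WEE1, at 0.532% and 0.379%, did not follow this order and were nearly equal in the 3 libraries. Counting error alone (the inverse square root of the mean DMSO reads) would give 0.714% and 1.53%, so their spread was at or below counting error, while that of PLK1 and FOXM1 was far above the 0.599% and 1.34% of theirs. In the BEZ235 group replicate 3 was lowest for 9 of the 10 genes and replicate 2 highest for 8, against 47.9% and 38.5% of all tested genes. The full order, replicate 3 below 1 below 2, held for 8 of the 10 genes and 25.4% of all tested genes. Between libraries of 1 group the genes thus varied by at most 1.59-fold, less than the 1.75-fold or more by which their group means differed.

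**Figure D4:**
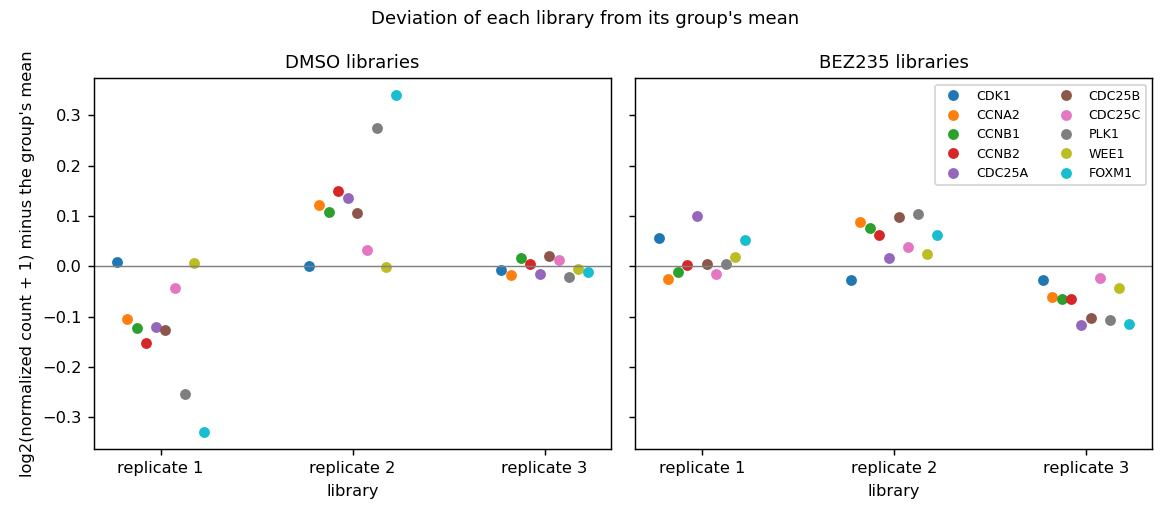
Deviation of each library from its own group's mean on the log2(normalized count + 1) scale (vertical axis) for the 10 genes (colours), in DMSO (left) and BEZ235 (right). FOXM1 and PLK1 lie farthest from 0 in DMSO replicates 1 and 2, where CDK1 and WEE1 stay close to 0.

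The rest of the pathway was read from 10 lists of genes by role, which hold 133 distinct tested genes. Of these 101 were called lower (75.9%), 16 higher and 16 not called; with total-count scaling 10 were called higher. Beside these counts and those of each list below stand the shares over all tested genes given above: 33.2% lower, 33.1% higher and 13.6% at least 2-fold lower. Of the 10 other partners and modifiers of CDK1, 9 were lower, 0 higher and 1 not called, with a median log2 fold change of -1.27. Next to PKMYT1, the small CDK-binding subunits CKS2 and CKS1B fell most, at -2.12 (SE 0.058) and -2.07 (SE 0.049). CDK7, the catalytic subunit of the kinase that activates CDK1, was the gene not called, at 0.09 (limma: SE 0.054, adjusted p = 0.141; 0.0163 with quantile normalization). Of 12 Aurora kinases, their partners and other polo-like kinases, 9 were lower, all by at least 2-fold, and 3 not called (median -1.89). The chromosomal passenger genes CDCA8 and INCENP fell by 2.54 and 2.24 on the log2 scale and BORA, the cofactor with which Aurora A activates PLK1, by 2.16. AURKA itself went from 7339 ± 884 (SD, n = 3) to 3078 ± 200, a log2 fold change of -1.25 (SE 0.086). The genes not called, AURKC, PLK2 and PLK5, were low, at means of at most 76.5 normalized counts.

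PP2A-B55, the phosphatase that CDK1 must hold back for mitosis to proceed, was listed together with Greatwall kinase and its substrates, which act to inhibit it. These genes moved less evenly. Of 11 genes of Greatwall kinase and PP2A-B55, 7 were lower and 3 higher, the latter near the share over all genes (median -0.39), and 1 was higher with total-count scaling. MASTL, Greatwall itself, fell from 5296 ± 275 (SD, n = 3) to 1214 ± 29.1, a log2 fold change of -2.12 (SE 0.064). The regulatory subunit PPP2R2A fell by 1.02 and the scaffold subunit PPP2R1A rose by 0.46 (SE 0.056). Of 19 genes of the anaphase-promoting complex, which destroys the cyclins, 12 were lower, 3 higher and 4 not called (median -0.48). The higher count was 6 with quantile normalization and 5 without DMSO replicate 2. Its activator CDC20 fell from 48557 ± 7962 (SD, n = 3) to 9025 ± 856, a log2 fold change of -2.42, and its ubiquitin-conjugating enzymes UBE2C and UBE2S fell by 2.36 and 2.15. The largest rises among its core subunits were those of ANAPC4, 0.45 (SE 0.085), and CDC16, 0.31 (SE 0.047). Of 9 genes listed with the SCF ligase, 6 were lower and 3 higher (median -0.20). The 9 include USP7 and USP28, which remove ubiquitin and are not ligase subunits, with log2 fold changes of -0.36 and 0.16. The USP28 call held under 12 of 17 alternatives. CDCA3, an F-box-like protein that promotes WEE1 destruction, had a log2 fold change of -2.60 and CCNF, cyclin F, one of -1.92. BTRC, the F-box protein that recognises phosphorylated WEE1 and CDC25A, rose from 1478 ± 131 (SD, n = 3) to 2618 ± 196, a log2 fold change of 0.83 (SE 0.085), and the SCF scaffold CUL1 rose by 0.56.

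Among 11 genes that restrain CDC25, the checkpoint kinases and 14-3-3 proteins, 9 were lower, 0 higher and 2 not called (median -0.65). YWHAH, a 14-3-3 protein, fell by 1.86, YWHAB by 1.03 and MARK3, a kinase that phosphorylates CDC25C, by 0.90 on the log2 scale.

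Of the 16 genes of MuvB, B-MYB, the DREAM complex and NF-Y, whose sites are capitalised in the promoters above, 9 were lower, 4 higher and 3 not called (median -0.26). The higher count was 2 with total-count scaling. MYBL2, which encodes B-MYB, fell from 23521 ± 3559.9 (SD, n = 3) to 3775 ± 60.5, a log2 fold change of -2.63 (SE 0.090), more than FOXM1. LIN54, the MuvB subunit that contacts the CHR, and LIN52, another subunit, had log2 fold changes of -1.72 and -1.35, whereas RBBP4, a chromatin protein also found in other complexes, rose by 0.46 (SE 0.049). All 20 genes listed as reported FOXM1 targets were lower, 17 by at least 2-fold (median -2.06). Of these, 5 also stand on another list, and the other 15 were lower as well. The list was drawn up from genes active in G2 and mitosis with earlier results of these data known, so it is not independent evidence about FOXM1. DLGAP5, a spindle protein, fell by 2.45 and PRC1, which bundles midzone microtubules, by 2.41 on the log2 scale.

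**Figure D5:**
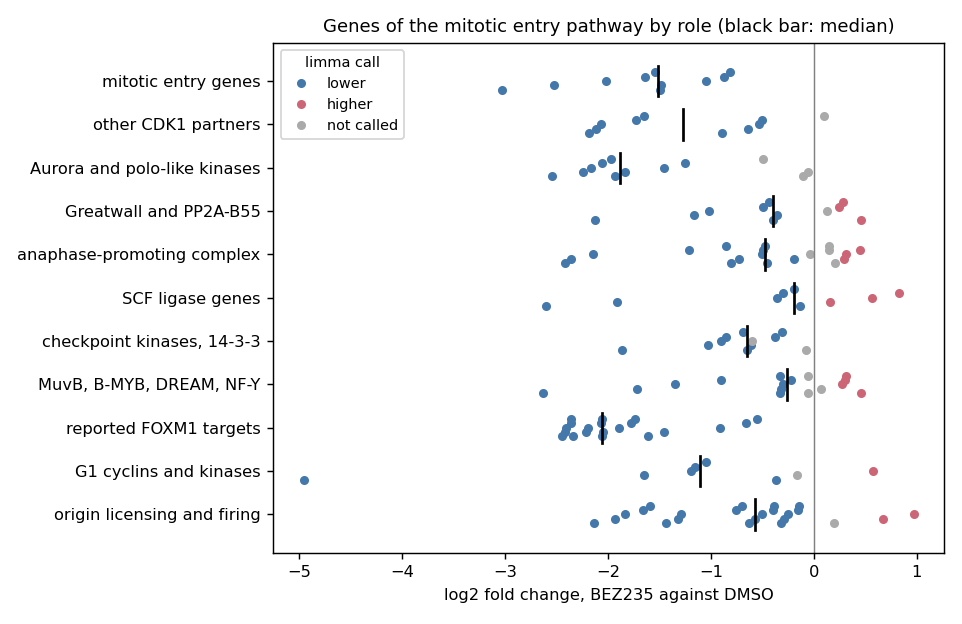
Log2 fold change, BEZ235 against DMSO (horizontal axis), of every tested gene on the lists by role (rows); blue points were called lower, red higher and grey not called by limma, and black bars are medians. The mitotic entry genes and reported FOXM1 targets lie wholly below 0, whereas the ligase, phosphatase and transcription factor lists reach both sides of it.

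The cyclins and kinases of G1 and the genes of replication origins gave a comparison from earlier in the cycle, given as counts and medians with no test between lists. Of 8 G1 genes, 6 were lower, 1 higher and 1 not called, with a median log2 fold change of -1.10. CCND2, cyclin D2, fell from 898 ± 84.0 (SD, n = 3) to 28.2 ± 5.67, further than any mitotic entry gene, and CCND3, CCNE2, CDK2, CDK6 and CCND1 had log2 fold changes of -1.19, -1.16, -1.65, -1.05 and -0.37. CDK4 rose by 0.57 (SE 0.066), and CCNE1 had a log2 fold change of -0.17 (limma adjusted p = 0.157; 0.033 without the mean-variance trend). Of 23 genes of origin licensing and firing, 20 were lower, 8 of them by at least 2-fold, and 2 higher (median -0.57). ORC6, a subunit of the origin recognition complex, MCM10 and the loading factor CDC6 had log2 fold changes of -2.13, -1.93 and -1.84. Of the same complex ORC5 and ORC3 rose, by 0.97 and 0.67 on the log2 scale. The mitotic entry genes had the lower median, -1.52, and the ranges of the 3 sets overlapped.

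The mean profile of the 10 genes over the 6 libraries, each gene centred on its own mean, was compared with every other named gene by Euclidean distance on the log2 scale, as a description over 6 libraries in 2 groups. CCNB2 lay nearest to it among the 10, at 0.042, and CDK1 farthest, at 1.71. The 5 nearest other genes were DLC1, TRIP13, RBPMS2, SMAP2 and POLA2, at distances of 0.035, 0.081, 0.088, 0.089 and 0.093. TRIP13, an ATPase of the spindle checkpoint, read 3938, 4662 and 4229 in DMSO and 1385, 1486 and 1356 in BEZ235, in the same order of libraries as most of the 10 genes. DLC1 and POLA2 had this order too, and RBPMS2 and SMAP2 had it in DMSO alone. Such likeness follows from the choice by distance over these libraries. POLA2, a subunit of DNA polymerase alpha, and DLC1 changed by -1.72 (SE 0.079) and -1.66 (SE 0.070) on the log2 scale.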

How the data were processed

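The table deposited by the authors holds normalized counts per gene, a signal that is never negative, for 6 libraries. STAR 2.4.0, DESeq and hg38 stand in the submitters' processing notes, with no roles; per the file headers rows are FASTDB genes. How reads were counted, and whether by strand, was not given in the sources used here. Columns named as controls were matched by number to the DMSO samples, the only controls. Each column held whole multiples of 1 step, 0.835 to 1.16 normalized counts, which gave whole reads for 99.99 to 100% of values (tolerance 0.01).

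Genes with at least 10 normalized counts in at least 3 libraries were tested (23923 of 48114) with limma 3.58.1 (R 4.3.3), with a mean-variance trend, on log2(normalized count + 1) with a term for the group alone; tests were two-sided and p-values adjusted by Benjamini-Hochberg over all tested genes. This scale understates changes of low genes. Ratios of gene pairs were compared with exact permutation tests. edgeR 4.0.16 and DESeq2 1.42.0 on recovered reads were alternatives, beside other scalings, pseudocounts of 0.5 and 10, other filters, a replicate block and leaving out each library. The fit was tested on simulated data.

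The 10 genes, lists, pairs and motifs were chosen with earlier results of these data known. Named from other lists were, by rule, all genes of lists with at most 8 tested members and otherwise the 3 largest falls and rises, with PKMYT1, MYBL2, AURKA, CDC20, CKS2 and the 5 nearest genes; genes outside it (CDK7, AURKC, PLK2, PLK5, overlapping neighbours) were named after their values were seen, and some it selects are not named, among them rises lost under an alternative. The symbol DUB3 matched no row.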

Additional observations from a re-analysis of the deposited data

How the results depend on the processing

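All 10 genes were called lower under each of the 17 alternatives, with the highest adjusted p at 0.0013 (FOXM1) over all of them. CDK1 ran from -3.13 to -2.99 on the log2 scale, CCNB1 from -0.97 to -0.82, WEE1 from -0.91 to -0.76 and FOXM1 from -1.66 to -1.32. The number at least 2-fold lower was 7 without DMSO replicate 2 and without BEZ235 replicate 3, where CDC25B stood at -0.99 each time. Total-count scaling moved the median of all genes to -0.10. Called genes ran from 14483 to 16102, with 15744 by edgeR and 15706 by DESeq2 on recovered reads. Of the other lists 10 genes were called higher with total-count scaling, against 16. No shared deviation of same-numbered libraries was seen: their deviations correlated across genes with r of -0.038, 0.023 and 0.044. This cannot show whether the libraries were paired by experiment. With the replicate block 15917 genes were called, against 15863, and all 10 genes fell. The PLK1 to FOXM1 log2 ratio shifted by 0.01 (-0.03 to 0.04 on leaving out 1 library), by -0.026 without DMSO replicate 2 and by -0.014 without BEZ235 replicate 2; the other 9 ratios kept their direction under all 8 alternatives run on them.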
